A study of Mus musculus with 8 samples.

Results

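The cell cycle and DNA replication genes are a list of 42 mouse genes, given by symbol. Of these, 17 act at the G1/S transition and in DNA replication, and 25 act in G2 and mitosis (G2/M). Matching by Ensembl identifier found 39 of the 42 among the 12148 genes of the expression table, 16 of the G1/S genes and 23 of the G2/M genes. *Cdc6*, *Bub1* and *Kif11* were not analysed here. The values come from RNA-Seq of dental pulp (DP) dissected from the mandibular first molars of C57BL/6J mice at postnatal day 7 (P7), with 4 libraries for each of 2 genotypes. Osterix-Cre controls carry a Cre recombinase driven by the promoter of Osterix (*Sp7*), a transcription factor of odontoblasts and other cells of the dental mesenchyme. Mutant mice, called *Tgfbr2cko*, carry the same Cre and both copies of the TGF-β receptor gene *Tgfbr2* flanked by loxP sites (Osterix-Cre:Tgfbr2f/f). No library came from mice without Cre, so an effect of Cre itself is shared by both groups. Only cells with Cre activity, or descended from such cells, can lose the receptor, so the tissue also holds cells that keep it. RNA of the left and right molars of an animal was combined.

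A dividing cell passes a restriction point in G1, where D-type cyclins and their kinases release E2F transcription factors from the retinoblastoma protein. E2F factors then switch on cyclin E and the genes that load the MCM helicase, supply nucleotides and copy the DNA. In G2, a further set of genes is switched on for condensing chromosomes, building the spindle and separating the daughter cells, and cells that leave the cycle to differentiate, as odontoblasts do, silence both sets. TGF-β is known to slow the cycle of many epithelial cells, and its effect on mesenchymal cells depends on the context.

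Values are log2 CPM, read counts scaled to a common library total, where a difference of 1 is a doubling, and between 8682872 and 13539670 reads per library lay on the listed genes of the table. Libraries are called by the number in their label. Libraries 49, 50, 51 and 52 are labelled Osterix-Cre and libraries 53, 54, 55 and 56 are labelled *Tgfbr2cko*, and values by library are given in that order. *Tgfbr2* (ENSMUSG00000032440.13), the targeted gene, had log2 values of 7.16, 7.62, 7.64 and 7.52 in controls and 7.02, 6.998, 7.16 and 7.61 in mutants. The libraries labelled Tgfbr2cko 55 (just above the lowest control) and 56 thus lay within the control range, and the log2 fold change (mutant minus control) of this gene was -0.29 (standard error 0.17, exact permutation p = 0.143). The limma-trend p of *Tgfbr2* was 0.119, and of 17 alternative fits 3 gave a p under 0.05, with the highest p at 0.264. Those 3 were without library 56 (-0.42, limma-trend p of 0.0136), without control library 49 (-0.39, p of 0.0411) and with library weights (-0.42, p of 0.00990). Library 56 also held far more enamel matrix transcripts (*Amelx*, *Ambn* and *Enam*) than the others, with a mean log2 value of 15.3 against 9.23 to 12.6 in the other 7. As a check of the dental pulp label, all 8 pulp mesenchyme markers were measured, with mean log2 values between 8.93 (library 56) and 9.38, and *Dspp*, the dentin matrix gene of odontoblasts, lay at 11.99 to 14.02. In library 56, however, the pulp mesenchyme markers summed to 29872 CPM, the lowest of the 8 libraries, against 197538 CPM for the markers of enamel epithelium. The titles also carry a number (4, 4, 2 and 5 in the controls, 3, 2, 2 and 3 in mutants) whose meaning is not given in the sources used here. No label says which libraries are separate animals, so every p below measures the spread between these libraries, which may be technical.

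A few promoters are shown before the values, because genes of the 2 phases are known for different promoter elements. RefSeq (GRCm38.p6) gave a window from 250 bases before to 50 bases after its start of transcription for 30 of the 39 genes. The entry was missing for *Mcm4*, *Ccne2*, *Ccnd1*, *Ccnd2*, *Ccna2*, *Aurkb*, *Kif20a*, *Tpx2* and *Smc4*. For *E2f1* the RefSeq start lay 466 bases inside the gene as GENCODE M21 places it, and for *Mcm7* both RefSeq starts lay 539 and 1156 bases inside, so the windows of these genes are no promoters of that 5′ end and were left out. In the other 28 genes the RefSeq start lay within 250 bases of the 5′ end, as it did in 7961 genes of the table, a limit chosen after the search. The search covered both strands for the CHR element of late cell cycle genes (TTTGAA or TTCGAA), the CCAAT box bound by the factor NF-Y, and the E2F site (TTTCCCGC, TTTCGCGC, TTTGCCGC or TTTGGCGC). CHR letters were present in 14 of 18 G2/M windows (77.8%), in 1 of 10 G1/S windows and in 13.3% of the 7961. CCAAT letters were present in 16 of 18 G2/M windows (88.9%), in 7 of 10 G1/S windows and in 39.7% of the 7961. E2F letters were present in 4 of 10 G1/S windows, in 1 of 18 G2/M windows (5.56%, *Cdk1*) and in 4.38% of the 7961. CHR and CCAAT stood together in 14 of 18 G2/M windows (77.8%) and in 5.61% of the 7961. These matches describe letters in a window and are not binding sites.

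The promoters printed here are that of *Plk1*, for the largest genotype difference of a G2/M gene with an entry, and those of *Pcna* and *Hmgb2*, for the highest level per length with an entry in each phase, after *Ccnd2* and *Tpx2*, which have no entry, were passed over. *E2f1*, with the largest difference in G1/S, is not shown. *Mcm6* and *Cdk1* were added after the search because they hold E2F letters. Each is written 5′ to 3′ on the strand of its gene, and capitals mark a motif on either strand. Their regions on GRCm38.p6 are chr2:132253131-132253430, minus strand for *Pcna*, chr1:128359656-128359955, minus strand for *Mcm6*, chr7:122159185-122159484, plus strand for *Plk1*, chr8:57511593-57511892, plus strand for *Hmgb2* and chr10:69352863-69353162, minus strand for *Cdk1*.
Pcna: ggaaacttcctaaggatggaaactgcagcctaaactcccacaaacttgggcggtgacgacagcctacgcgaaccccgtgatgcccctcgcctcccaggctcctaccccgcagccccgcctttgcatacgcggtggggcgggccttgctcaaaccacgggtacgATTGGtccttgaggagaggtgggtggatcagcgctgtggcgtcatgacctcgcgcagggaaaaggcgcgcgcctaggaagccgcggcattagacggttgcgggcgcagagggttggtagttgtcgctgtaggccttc
Mcm6: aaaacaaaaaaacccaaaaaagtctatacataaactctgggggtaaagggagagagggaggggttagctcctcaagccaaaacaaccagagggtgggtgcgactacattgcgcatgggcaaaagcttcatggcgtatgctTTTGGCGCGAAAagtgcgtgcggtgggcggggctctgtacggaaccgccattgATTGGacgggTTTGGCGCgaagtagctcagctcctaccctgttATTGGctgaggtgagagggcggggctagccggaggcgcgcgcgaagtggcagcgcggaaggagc
Plk1: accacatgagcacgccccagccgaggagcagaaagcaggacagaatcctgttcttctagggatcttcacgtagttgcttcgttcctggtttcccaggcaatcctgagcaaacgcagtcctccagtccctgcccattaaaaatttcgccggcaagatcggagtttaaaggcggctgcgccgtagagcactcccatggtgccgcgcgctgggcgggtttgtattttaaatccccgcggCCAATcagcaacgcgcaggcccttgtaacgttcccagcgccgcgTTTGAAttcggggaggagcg
Hmgb2: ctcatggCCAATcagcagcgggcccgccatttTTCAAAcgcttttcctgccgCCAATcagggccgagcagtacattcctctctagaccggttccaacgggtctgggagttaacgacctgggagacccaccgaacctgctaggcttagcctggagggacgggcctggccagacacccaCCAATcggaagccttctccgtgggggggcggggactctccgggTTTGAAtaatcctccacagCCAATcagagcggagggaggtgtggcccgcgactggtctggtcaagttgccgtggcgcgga
Cdk1: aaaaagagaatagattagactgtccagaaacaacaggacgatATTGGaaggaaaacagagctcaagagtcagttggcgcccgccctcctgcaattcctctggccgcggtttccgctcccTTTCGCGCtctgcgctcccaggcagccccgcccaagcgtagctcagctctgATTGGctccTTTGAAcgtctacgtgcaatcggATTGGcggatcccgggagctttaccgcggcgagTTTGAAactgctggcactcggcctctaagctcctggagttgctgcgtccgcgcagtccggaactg
In *Mcm6*, the E2F letters TTTGGCGC and, on the other strand, TTTCGCGC share bases in the first run of capitals. *Hmgb2* held 4 CCAAT boxes and 2 CHR elements, and *Cdk1* held all 3 kinds of motif, with its last CHR element 15 bases before the start.

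Per length, the D-type cyclin *Ccnd2* stood far above every other gene of the list. Levels between genes are given as RPKM, CPM divided by the exon length in kilobases, with the exons of all transcripts of a gene merged. *Ccnd2* had 75.6 ± 11.9 RPKM (SD, n = 4) in controls and 82.3 ± 16.9 RPKM (SD, n = 4) in mutants, and its log2 values rest on 5912 to 8893 reads per library. *Pcna*, the sliding clamp of the replication fork, came next at 20.4 ± 3.09 RPKM in controls and 20.3 ± 3.38 RPKM in mutants (SD, n = 4). *Mcm6* at 16.2 ± 4.10 RPKM, *Hmgb2* at 14.6 ± 4.28 RPKM, *Cdc20* at 12.5 ± 4.94 RPKM and *Smc4* at 12.4 ± 0.981 RPKM (controls, SD, n = 4) followed, and their ranges overlapped, so that the order among these 4 genes is within the spread of the libraries. The lowest levels were those of *Cenpf* at 0.711 ± 0.139 RPKM, *Kif23* at 0.934 ± 0.378 RPKM, *Cenpe* at 1.04 ± 0.261 RPKM and *E2f1* at 1.20 ± 0.335 RPKM (controls, SD, n = 4). *Mki67*, the gene of the proliferation antigen Ki-67, was also low at 1.51 ± 0.613 RPKM. Without division by length *Ccnd2* stayed first and *Mcm6*, *Smc4* and *Pcna* came next. The smallest count of any gene was 20 reads, for *Kif23* in library 55.

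**Figure D1:**
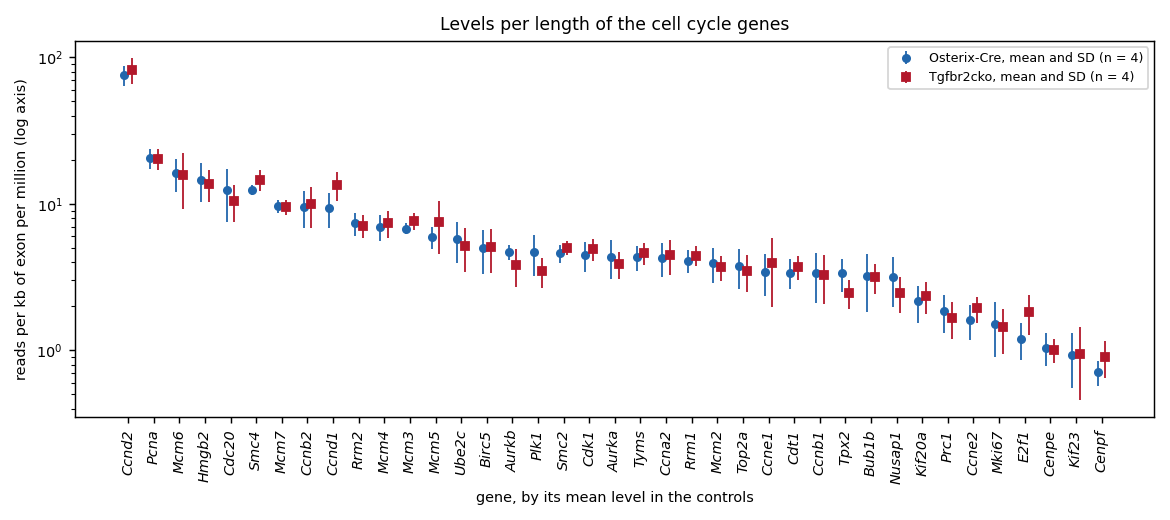
Level of each of the 39 genes per length, in RPKM on a log axis, ordered by the control mean. Points are means and bars SDs of the 4 libraries of each genotype, and *Ccnd2* lies above all other genes while for most genes the bars of both genotypes overlap.

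No gene of the list was altered between the genotypes. A gene was called altered at an unadjusted p under 0.05 in the limma-trend test (two-sided) with a difference of at least 1.5-fold, the thresholds used in the study, and 0 of 39 met both, where 5.77% of all 12148 genes did (2.12% higher and 3.65% lower in *Tgfbr2cko*). At an unadjusted p under 0.05 alone, 1 of 39 passed (2.56%, *Ccnd1*), against 8.38% of all genes. Adjusted by the Benjamini-Hochberg method over all 12148 genes, the p of 0 of 39 was under 0.05, against 0.947% of all, and the lowest adjusted p in the list was 0.429. In 0 of 39 did the libraries of the genotypes fail to overlap, against 5.27% of all. The log2 fold change (mutant minus control) was above 0 in 20 genes and below 0 in 19, with a median of 0.0075 where the median of all genes was -0.0053. Tissue RNA cannot tell fewer dividing cells from less of these transcripts in each cell.

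These counts do not show that the genotypes were alike, and the 95% intervals say how large a difference the data allow. For 14 of 39 genes the interval lay within 1.5-fold in both directions, in 9 of 16 G1/S and 5 of 23 G2/M genes. Within 2-fold lay 37 of 39, and the 2 others were *E2f1*, with an interval of -0.053 to 1.26, and *Kif23*, with -1.06 to 0.83, both on the log2 scale. Among all genes, 5858 and 10254 of 12148 lay within those bounds. Cell cycle genes varied more between libraries of a genotype than the table as a whole, with a median within-genotype SD of 0.39 log2 units (0.30 in G1/S, 0.41 in G2/M) against 0.28 over all genes. They also had lower levels, with control means of 4.76 in G1/S and 3.98 in G2/M. Over all genes the means of the control libraries were 4.83 to 4.99. The SDs were not compared at matched levels.

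**Figure D2:**
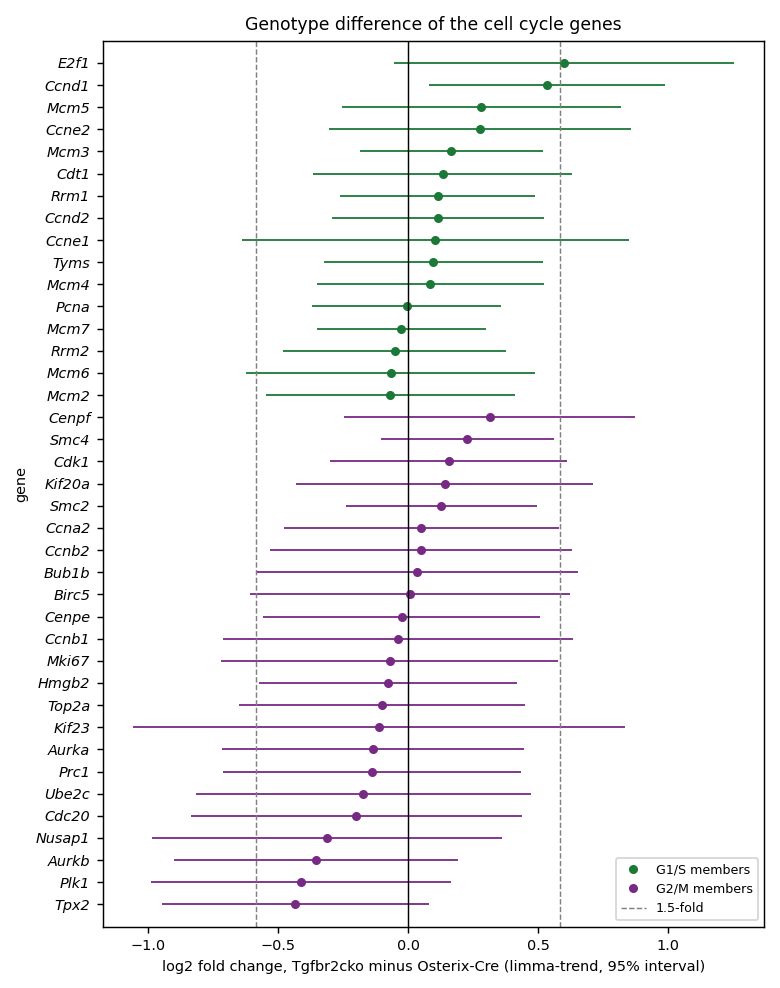
Log2 fold change of each of the 39 genes, *Tgfbr2cko* minus Osterix-Cre, from the limma-trend fit, with bars for the 95% intervals and dashed lines at 1.5-fold. Only the interval of *Ccnd1* (0.079 to 0.99) leaves out 0, and G1/S genes (green) run from -0.068 to 0.60 while G2/M genes (purple) run from -0.43 to 0.31.

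By phase, the G1/S genes had a median log2 fold change of 0.11, with 11 above 0 and 5 below. The G2/M genes had a median of -0.070, with 9 above 0 and 14 below. Neither median was tested. Leaving out the libraries in turn moved the G1/S median between 0.0046 (without library 53) and 0.17 (without library 50), and the G2/M median between -0.23 (without library 53) and 0.13 (without library 55). The G2/M median was above 0 also without library 49 (0.037), without library 50 (0.074) and with libraries of the same genotype and title number averaged (0.042), and with library weights it was -0.14. The G1/S median stayed above 0 in all 17 alternatives, at 0.058 with library weights and 0.20 with the enamel matrix level as a covariate. In these 2 fits the median of all genes was 0.020 and 0.070.

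The MCM proteins form the hexameric helicase that is loaded at origins in G1 and unwinds DNA in S phase, and *Cdt1* encodes the factor that loads it. *Mcm6*, the most abundant subunit transcript per length, had log2 values of 6.43, 6.50, 6.27 and 5.58 in controls and 6.90, 5.96, 5.81 and 5.85 in mutants. Library 53 alone stood high among the mutants and library 52 low among the controls, and the log2 fold change was -0.067 (standard error 0.26, exact permutation p = 0.857). *Mcm5* had values of 4.58, 4.64, 4.79 and 4.17 in controls and 5.55, 4.86, 4.31 and 4.59 in mutants, so that library 53 was again the highest of all 8 and the genotypes overlapped. Its difference, 0.28 (standard error 0.25, exact permutation p = 0.400), fell to 0.042 without library 53 and to 0.14 with library weights. *Mcm2* had values of 4.48, 5.10, 5.05 and 4.30 in controls and 4.997, 4.61, 4.30 and 4.75 in mutants, with 2 control libraries above every mutant and a difference of -0.068 (standard error 0.22, exact permutation p = 0.800). *Mcm3*, *Mcm4* and *Mcm7* ranged over 4.56 to 5.03, 4.23 to 5.11 and 5.19 to 5.57 across the 8 libraries, with log2 fold changes of 0.17, 0.085 and -0.027 and exact permutation p of 0.171, 0.686 and 0.8286. *Cdt1* had values of 3.51, 3.77, 3.33 and 2.96 in controls and 3.87, 3.55, 3.27 and 3.42 in mutants. It too was lowest in library 52 and highest in library 53, with a difference of 0.13 (standard error 0.23, exact permutation p = 0.571). For 4 of these 7 genes the interval lay within 1.5-fold.

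All 4 intervals of the replication fork and nucleotide genes lay within 1.5-fold. *Pcna* had log2 values of 5.72, 5.83, 5.53 and 5.32 in controls and 5.92, 5.59, 5.42 and 5.46 in mutants. The genotype means of 5.60 were the same to 2 decimals, and the interval of the log2 fold change was -0.37 to 0.36. *Tyms* encodes thymidylate synthase, which makes the thymidine nucleotide, and had values of 4.82, 4.86, 4.89 and 4.23 in controls and 5.12, 4.79, 4.63 and 4.64 in mutants. Apart from the low value in control library 52 its controls differed by less than 0.1, and the difference between genotypes was 0.098 (standard error 0.19, exact permutation p = 0.657). *Rrm1* and *Rrm2*, the large and small subunits of ribonucleotide reductase, ranged over 5.24 to 5.81 and 3.95 to 4.62. Their log2 fold changes were 0.11 (standard error 0.17, exact permutation p = 0.457) for *Rrm1* and -0.051 (standard error 0.20, exact permutation p = 0.771) for *Rrm2*, with the genotypes overlapping in both.

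The G1 cyclins and *E2f1* had log2 fold changes above 0 with all libraries, but not *Ccnd2* and *Ccne1* without library 53 (-0.017 and -0.17) or *Ccne1* without library 51 or 54, and *Ccnd1* was the gene of the list with the lowest p. *Ccnd1* (ENSMUSG00000070348.5, chromosome 7 from 144929931 to 144939925 on GRCm38) encodes cyclin D1, the D-type cyclin that mitogens induce. Its log2 values were 5.12, 5.36, 5.94 and 5.30 in controls and 5.50, 6.27, 5.92 and 6.15 in mutants. In 3 of 4 mutants it exceeded 5.9, as it did in 1 control (library 51), while mutant library 53 lay between control library 51 and the other 3 controls. Means of 5.43 ± 0.35 in controls and 5.96 ± 0.34 in mutants (SD, n = 4) gave a log2 fold change of 0.53 or 1.45-fold (standard error 0.21, 95% interval 0.079 to 0.99). The limma-trend p was 0.0248, the adjusted p 0.429, and an exact permutation test (two-sided, 70 arrangements, smallest possible p 0.0286) gave 0.0857. The unadjusted p stayed under 0.05 in 3 of 8 fits that left out a library, without libraries 51, 53 and 55, with both thresholds passed without 51 or 53. With libraries of the same genotype and title number averaged, the log2 fold change was 0.47 and its p was 0.0549. It was 0.0777 without library 49, 0.0528 without library 50, 0.0586 without library 52, 0.0818 without library 54 and 0.0525 without library 56. Exons of *LTO1* on the opposite strand cover 23.4% of the exonic bases of *Ccnd1*, and *LTO1* itself differed by 0.039 (limma-trend p of 0.851). Whether the counting used strand is not given in the sources used here.

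*E2f1* (ENSMUSG00000027490.17, chromosome 2 from 154559407 to 154569892), the E2F activator, had the largest log2 fold change of the 39 genes but rests on only 29 to 73 reads per library. Its log2 values were 1.59, 2.03, 2.38 and 1.58 in controls and 3.05, 2.56, 2.03 and 2.34 in mutants. All 4 mutants lay at 2.03 or above and 3 of 4 controls below 2.04, but control library 51 exceeded 2 of the mutants. Its log2 fold change came to 0.60 (standard error 0.30, 95% interval -0.053 to 1.26), with a limma-trend p of 0.0686, an adjusted p of 0.661 and an exact permutation p of 0.143. *E2f1* passed both thresholds of an altered gene without the trend, after median centring, without library 51 or 55, after quantile normalization (0.65, limma-trend p of 0.0317) and with the enamel matrix level as a covariate (0.77, p of 0.0255), and with library weights its difference was 0.40 (p of 0.187).

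The other cyclins of G1 differed less. *Ccnd2* had log2 values of 9.59, 9.71, 9.28 and 9.26 in controls and 9.97, 9.49, 9.54 and 9.31 in mutants. Library 53 was highest and control library 52 lowest, and the log2 fold change was 0.11 (standard error 0.19, exact permutation p = 0.600). *Ccne1*, which encodes cyclin E1, the partner of CDK2 at the start of S phase, had values of 3.34, 3.69, 2.65 and 2.92 in controls and 4.08, 3.62, 2.60 and 2.72 in mutants. Its mutants were split, with libraries 53 and 54 above 3.6 and libraries 55 and 56 below 2.8, and the difference was 0.11 (standard error 0.34, exact permutation p = 0.800). *Ccne2*, the gene of cyclin E2, had values of 2.28, 2.03, 2.91 and 2.66 in controls and 2.62, 2.96, 2.39 and 3.02 in mutants, a difference of 0.28 (standard error 0.27, exact permutation p = 0.257) with overlapping genotypes. *Ints8*, on the other strand, shares 17.4% of the exonic bases of *Ccne2*.

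In G2/M, CDK1 with cyclins A and B drives entry into mitosis. *Cdk1* had log2 values of 4.48, 4.81, 4.49 and 3.95 in controls and 4.78, 4.63, 4.21 and 4.75 in mutants. Libraries 52 and 55 were the lowest of their genotypes, and the difference was 0.16 (standard error 0.21, exact permutation p = 0.514). *Ccnb1*, the gene of cyclin B1, had values of 3.99, 4.40, 3.22 and 3.43 in controls and 4.35, 3.65, 3.02 and 3.85 in mutants. It spanned over 1 log2 unit within each genotype, against a difference between them of -0.039 (standard error 0.31, exact permutation p = 0.914). *Ccna2*, the gene of cyclin A2, had values of 4.06, 4.60, 3.97 and 3.77 in controls and 4.50, 4.41, 3.56 and 4.14 in mutants and a difference of 0.051 (standard error 0.25, exact permutation p = 0.886). *Ccnb2*, the gene of cyclin B2, had values of 4.16, 4.18, 3.65 and 3.30 in controls and 4.42, 4.01, 3.35 and 3.71 in mutants, and again libraries 52 and 55 were lowest while the difference was 0.050 (standard error 0.27, exact permutation p = 0.914). *Exosc9*, on the other strand, covers 12.5% of the exonic bases of *Ccna2*.

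The mitotic kinases and their partners had differences on both sides of 0, and none of the 5 measured had an interval within 1.5-fold. *Plk1*, the polo-like kinase of mitotic entry and spindle assembly, had log2 values of 3.12, 3.90, 3.01 and 3.25 in controls and 3.16, 3.004, 2.36 and 3.12 in mutants. Control library 50 was high and mutant library 55 low, the other 6 lay between 3.004 and 3.25, and the log2 fold change was -0.41 with a 95% interval of -0.99 to 0.17 (exact permutation p = 0.200). *Aurkb*, the kinase of the chromosomal passenger complex, had values of 3.82, 3.72, 4.003 and 3.62 in controls and 3.74, 3.60, 2.68 and 3.74 in mutants. Mutant library 55 stood well below the other 7, and the difference was -0.35 (standard error 0.25, exact permutation p = 0.200). *Birc5* encodes survivin, a partner of Aurora B in the same complex, and had values of 4.13, 4.62, 3.81 and 3.56 in controls and 4.55, 4.28, 3.35 and 3.97 in mutants. Its difference of 0.0075 was close to 0 although its libraries spanned over 1 log2 unit. *Aurka*, the centrosome kinase, had values of 3.78, 3.72, 3.44 and 2.72 in controls and 3.57, 3.47, 2.87 and 3.21 in mutants and a difference of -0.13 (standard error 0.27, exact permutation p = 0.629). *Bub1b*, which encodes the checkpoint protein BubR1, had values of 3.14, 4.48, 3.56 and 3.57 in controls and 3.94, 3.67, 3.23 and 4.05 in mutants with the lowest and the highest value both in controls, and a difference of 0.035 (standard error 0.29, exact permutation p = 0.886).

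*Cdc20* and *Ube2c* serve the anaphase-promoting complex, as its activator and its ubiquitin-conjugating enzyme. *Cdc20* had log2 values of 4.92, 5.01, 4.03 and 3.85 in controls and 4.71, 4.32, 3.66 and 4.33 in mutants. Controls 49 and 50 lay near 5 and controls 51 and 52 near 4, so that the spread within the controls was larger than the difference of -0.20 (standard error 0.29, exact permutation p = 0.600). *Ube2c* had values of 4.03, 4.35, 3.76 and 3.22 in controls and 4.19, 3.73, 2.92 and 3.84 in mutants, with the lowest value in library 55 and a difference of -0.17 (standard error 0.30, exact permutation p = 0.600). *Tnnc2*, on the other strand, covers 22.8% of the exonic bases of *Ube2c* and was not analysed here.

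Spindle, kinetochore and cytokinesis genes held the largest difference below 0, that of *Tpx2*. *Tpx2* (ENSMUSG00000027469.16, chromosome 2 from 152847964 to 152895321) encodes a microtubule nucleator that activates Aurora A, and its log2 values were 3.87, 4.38, 4.01 and 3.48 in controls and 3.92, 3.20, 3.35 and 3.55 in mutants. The 3 highest values were those of controls 50 and 51 and mutant library 53, with control libraries 49 and 52 inside the mutant range. The log2 fold change was -0.43 (standard error 0.24, 95% interval -0.95 to 0.079, limma-trend p of 0.0908, adjusted p = 0.725, exact permutation p = 0.143). *Nusap1*, a spindle microtubule binder, had values of 3.79, 4.19, 3.68 and 2.74 in controls and 3.50, 3.67, 2.68 and 3.30 in mutants. Libraries 52 and 55 were low and library 50 high, and the difference was -0.31 (standard error 0.31, exact permutation p = 0.371). Without control library 52, *Tpx2* (-0.59, limma-trend p of 0.0311) and *Nusap1* (-0.60, p of 0.0484) passed both thresholds of an altered gene, and without any other single library neither did.

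*Cenpf*, a kinetochore protein gene, had values of 3.48, 3.54, 3.72 and 3.01 in controls and 4.09, 3.84, 3.06 and 4.02 in mutants. Here 3 of 4 mutants exceeded every control while mutant library 55 was near the lowest control, and the difference was 0.31 (standard error 0.26, exact permutation p = 0.314). *Cenpe*, the kinetochore motor gene, had values of 3.56, 3.23, 3.12 and 2.66 in controls and 3.18, 2.87, 2.96 and 3.46 in mutants and a difference of -0.025 (standard error 0.25, exact permutation p = 0.914). *Kif20a*, *Kif23* and *Prc1* build the central spindle at cytokinesis. *Kif23* ranged from 1.24 in mutant library 55 to 3.56 in mutant library 53, the widest span of the list, with values of 2.39, 3.56, 2.83 and 2.49 in controls and 3.56, 3.02, 1.24 and 3.002 in mutants and a difference of -0.11 (standard error 0.44, exact permutation p = 0.943). *Kif20a* and *Prc1* ranged over 2.66 to 3.74 and 3.27 to 4.28, and their differences were 0.14 (standard error 0.26, exact permutation p = 0.629) and -0.14 (standard error 0.27, exact permutation p = 0.629). On the opposite strand, *Cdc23* shares 29.3% of the exonic bases of *Kif20a*, and *Rccd1* shares 11.1% of those of *Prc1*.

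Genes of chromosome structure completed the G2/M set. *Mki67* had log2 values of 4.60, 3.45, 3.82 and 3.56 in controls and 4.26, 3.55, 3.18 and 4.17 in mutants. Control library 49 and mutant libraries 53 and 56 lay above 4 and the other 5 below 3.9, and the difference was -0.070 (standard error 0.30, exact permutation p = 0.886). *Top2a* encodes topoisomerase IIα, which untangles sister chromatids, and had values of 4.93, 5.56, 5.14 and 4.49 in controls and 5.24, 4.83, 4.34 and 5.31 in mutants. Its lowest values were again in libraries 52 and 55, and its difference was -0.10 (standard error 0.25, exact permutation p = 0.800). *Hmgb2*, a DNA-bending protein gene, had values of 5.84, 5.69, 5.24 and 4.87 in controls and 5.80, 5.33, 5.003 and 5.20 in mutants and a difference of -0.077 (standard error 0.23, exact permutation p = 0.8286). *Smc4* and *Smc2* are the core subunits of condensin. *Smc4* had values of 5.96, 5.95, 6.18 and 5.96 in controls and 6.23, 6.44, 6.39 and 5.89 in mutants, with 3 mutants above every control and library 56 below them, and a difference of 0.23 (standard error 0.15, exact permutation p = 0.229). The limma-trend p of *Smc4* was under 0.05 in 3 of 17 alternatives, each less than 1.5-fold. These were without library 56 (0.34, p of 0.0254), with the enamel covariate (0.32, p of 0.0400) and with library weights (0.29, p of 0.0428). *Smc2* had values of 4.64, 4.72, 4.87 and 4.37 in controls and 4.95, 4.88, 4.67 and 4.61 in mutants and a difference of 0.13 (standard error 0.17, exact permutation p = 0.400), and both condensin intervals lay within 1.5-fold.

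Libraries of the same genotype differed more than the genotypes did, and most genes of the list had their lowest value of a genotype in the same library. Library 52 had the lowest control value in 28 of 39 genes and library 55 the lowest mutant value in 30 of 39. Library 53 had the highest mutant value in 30 genes and library 50 the highest control value in 22. In the G1/S genes, library 50 and library 51 each had the highest control value in 8. These counts were not taken over all genes. The median over all genes was also lowest among controls in library 52 (4.92) and highest among mutants in library 53 (5.08). Among mutants, however, it was lowest in library 56 (4.81) and not in library 55 (5.003). Between the controls, 36 of 39 genes were higher in library 50 than in library 52, by a median of 0.77 log2 units where the median over all genes was 0.17. Between the mutants, 36 of 39 genes were higher in library 53 than in library 55, by a median of 0.76 log2 units where all genes had 0.12. These library pairs were picked for their order after the values were seen, so the counts are a description.

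**Figure D3:**
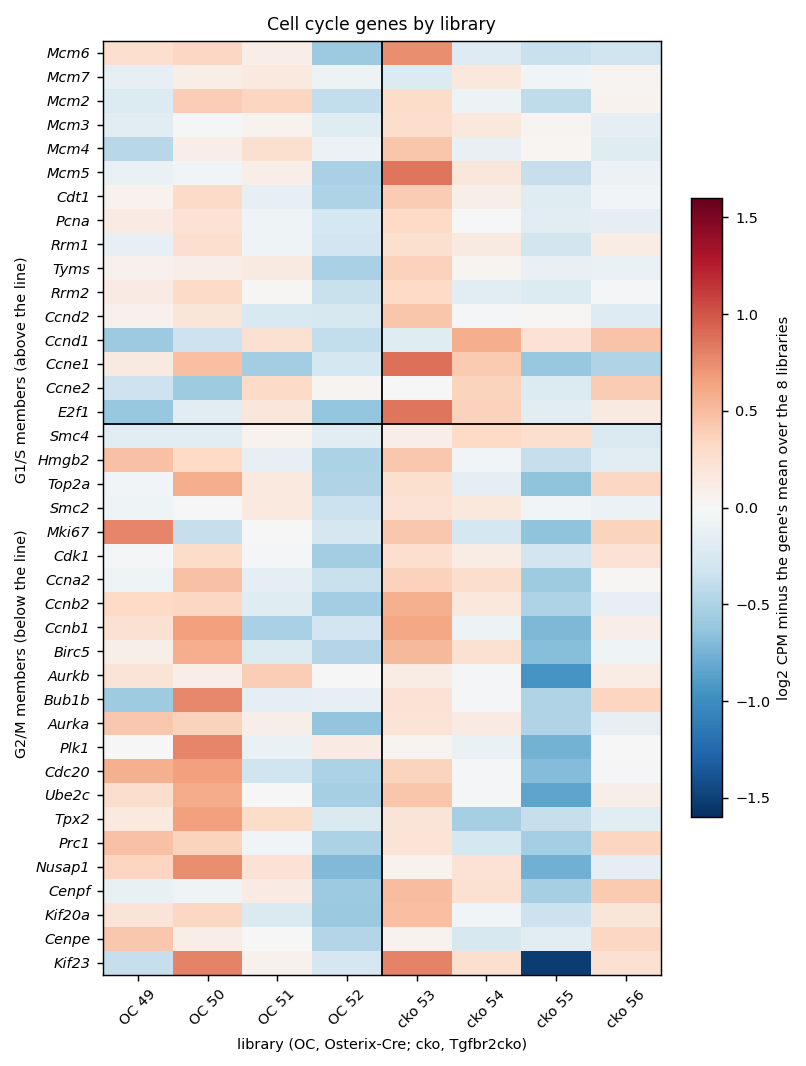
Log2 CPM of each of the 39 genes in each library minus the mean of the gene over the 8 libraries, as colour, with G1/S genes above the horizontal line and G2/M genes below it, and controls (OC) left of the vertical line. Columns 52 and 55 are mostly blue and columns 50 and 53 mostly red, within both genotypes.

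As a mean over the 23 G2/M genes, log2 values were 4.11, 4.34, 3.93 and 3.56 in controls and 4.28, 3.96, 3.40 and 4.04 in mutants. Libraries 52 and 55 lay lowest, the range over the 8 libraries was 0.94 log2 units, and the genotype means were 3.98 ± 0.33 and 3.92 ± 0.37 (SD, n = 4). Over the 16 G1/S genes the means were 4.71, 4.93, 4.88 and 4.49 in controls and 5.21, 4.94, 4.65 and 4.79 in mutants. Here too library 52 was the lowest control, library 55 the lowest mutant and library 53 the highest of all, and the genotype means were 4.76 ± 0.20 and 4.90 ± 0.24 (SD, n = 4). The G2/M mean minus the G1/S mean was -0.60, -0.59, -0.95 and -0.94 in controls and -0.93, -0.98, -1.25 and -0.76 in mutants. Both genotypes overlapped on this measure, and library 55 had the lowest G2/M level relative to G1/S. Among libraries of a genotype that share a title number, library 54 exceeded library 55 in 35 of 39 genes, by a median of 0.42 where all genes had 0.11. Library 53 exceeded library 56 in 32 genes by a median of 0.35, which was also the median over all genes. Library 49 minus library 50 had a median of -0.18 over the 39 genes, 31 of them below 0, where all genes had -0.088.

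Odontoblast markers ran opposite to the G2/M means in part. The 8 odontoblast markers (*Dspp*, *Dmp1*, *Phex*, *Nes*, *Ifitm5*, *Wnt10a*, *Bglap* and *Sp7*), all measured, had mean log2 values of 8.40, 8.14, 8.86 and 9.11 in controls and 8.03, 8.62, 8.54 and 8.06 in mutants. The 4 libraries with the lowest odontoblast means (49, 50, 53 and 56) were the 4 with the highest G2/M means, from 4.04 to 4.34 against 3.40 to 3.96 in the other 4. This split was picked after the values were seen and is a description. Markers of other cell types were not set against the G2/M means. For G1/S the order was another, with the highest means in libraries 50, 51, 53 and 54 (4.88 to 5.21) and lower ones in libraries 49 and 56 (4.71 and 4.79). Summed over the list, odontoblast markers made up 9016 to 22626 CPM in controls and 6376 to 13625 CPM in mutants. At p under 0.05, 3 of the 8 were lower and 1 was higher in mutants, where 8.38% of all genes had such a p. The part of these markers in the levels of the cell cycle genes was not tested.

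**Figure D4:**
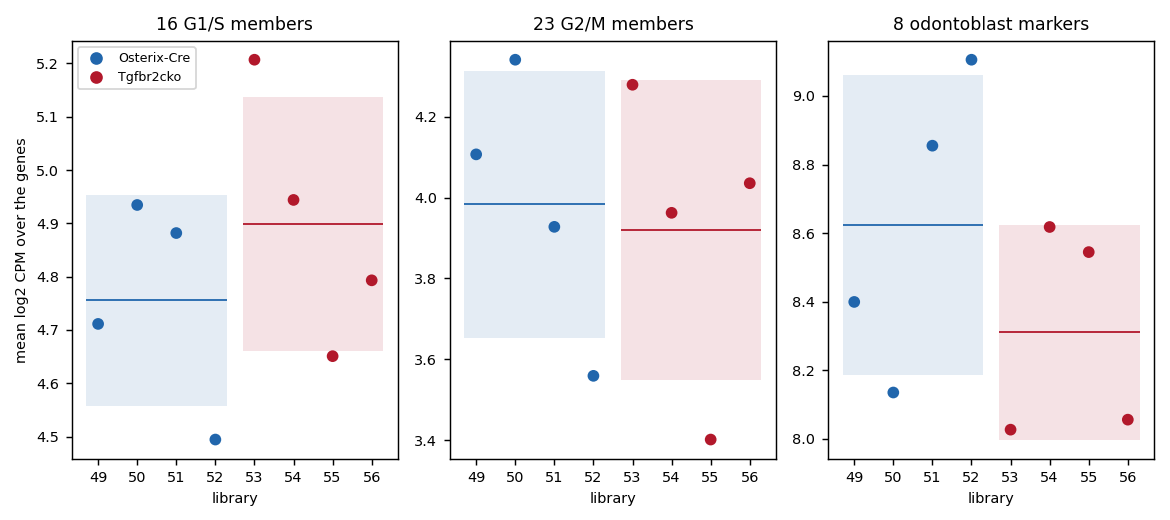
Mean log2 CPM in each library over the 16 G1/S genes, the 23 G2/M genes and the 8 odontoblast markers, with a line for the mean and a band for the SD of the 4 libraries of each genotype (axes do not start at 0). Libraries 52 and 55 are the lowest of their genotype in both cell cycle panels, and the genotypes overlap in all 3 panels.

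Markers of other cell types were read against the 8.38% of all genes with a p under 0.05. All 8 leukocyte markers were measured and all had log2 fold changes below 0, 4 at p under 0.05, with a summed level of 973 to 1168 CPM in controls and 409 to 951 CPM in mutants. All 8 endothelial markers likewise lay below 0, 3 at p under 0.05, at 357 to 463 CPM against 288 to 370 CPM. Of the enamel epithelium list 13 of 14 were measured, summing to 4293 to 23802 CPM in controls and 4669 to 197538 CPM in mutants, with 3 higher and 1 lower at p under 0.05 (the lower one *Klk4*, an enamel protease gene, at -2.71 and an adjusted p of 0.000136). Mural (6 of 8), erythroid (5 of 8), osteoclast (3 of 6) and Schwann cell (3 of 8) markers ran at 445 to 589, 655 to 1496, 233 to 280.03 and 73.7 to 84.5 CPM in controls and 341 to 414, 565 to 2541, 226 to 437 and 74.8 to 96.7 CPM in mutants. At p under 0.05, 3 mural markers were lower, 1 Schwann cell marker was higher, and 0 erythroid and 0 osteoclast markers passed. No marker that was measured was at 0 reads in any library. Any of these cells may divide at P7, and their part in the values of the cell cycle genes was not tested.

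A wider set of cell cycle genes was examined in the same fit, as 4 further lists with 115 of 136 genes measured. Of these, 3 had a p under 0.05, all of them higher in mutants, 2 were altered and 0 had an adjusted p under 0.05, against 8.38%, 5.77% and 0.947% of all genes, and the median log2 fold change was 0.023. None of the 46 measured mitosis genes and 1 of the 45 replication genes reached p under 0.05. *Myc*, which encodes the transcription factor that drives growth and entry into the cycle, had log2 values of 4.69, 4.66, 5.10 and 4.06 in controls and 5.67, 5.29, 5.16 and 4.92 in mutants. Every mutant lay above 3 of the 4 controls, and the log2 fold change was 0.63 (standard error 0.23, 95% interval 0.14 to 1.12), with a limma-trend p of 0.0158, an adjusted p of 0.338 and an exact permutation p of 0.0571. With library weights the difference was 0.55, less than 1.5-fold. Without library 52 its p was 0.0567, and without library 53 it was 0.0514. *Atm*, the kinase gene of the DNA damage checkpoint, had values of 2.83, 2.27, 2.87 and 2.39 in controls and 3.25, 3.23, 3.40 and 2.93 in mutants. All mutants exceeded all controls, by a log2 fold change of 0.62 (standard error 0.23, limma-trend p of 0.0209, adjusted p = 0.391, exact permutation p = 0.0286, the smallest possible). Its p was 0.0657 without library 50, 0.0519 without library 52 and 0.0617 without library 55, and with 5 reads added the difference was 0.57, less than 1.5-fold. The replication gene was *Pold2*, the small subunit of DNA polymerase δ, named after its values were seen, with a log2 fold change of 0.56 (standard error 0.19, limma-trend p of 0.0113, adjusted p = 0.282) that is just under 1.5-fold. The p of *Pold2* was under 0.05 in all 17 alternatives, and it was altered with library weights (0.64), with the enamel covariate (0.73) and without library 50 (0.59), 52 (0.62) or 56 (0.73). *Cdk4*, the kinase partner of the D-type cyclins, had 96.6 ± 12.2 RPKM in controls and 110 ± 13.9 RPKM in mutants (SD, n = 4) and a log2 fold change of 0.19 (exact permutation p = 0.171).

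Inhibitors of the cycle held 5 genes with a p under 0.05, of 19 measured and 20 listed (8.38% of all genes had such a p). Of these 1 was higher and 4 were lower in mutants, 2 were altered and 0 had an adjusted p under 0.05, with a median log2 fold change of -0.071. *Gadd45g*, a stress-induced inhibitor of CDK1 activity, had log2 values of 5.78, 5.71, 6.17 and 5.20 in controls and 5.01, 4.998, 5.21 and 5.07 in mutants. All mutants but library 55 lay below all controls, and the log2 fold change was -0.64 (standard error 0.19, limma-trend p of 0.00536, adjusted p = 0.191, exact permutation p = 0.0571), with a limma-trend p under 0.05 in each of the 17 alternative fits, although without library 51 the difference was -0.49, less than 1.5-fold. *Btg2*, an antiproliferative gene induced on the way to differentiation, had values of 5.56, 5.92, 5.74 and 5.70 in controls and 5.51, 5.41, 5.23 and 4.81 in mutants. All 4 mutants lay below all 4 controls, with a log2 fold change of -0.49 (standard error 0.18, limma-trend p of 0.0144, adjusted p = 0.323, exact permutation p = 0.0286), which is less than 1.5-fold. The limma-trend p of *Btg2* was under 0.05 in all 17 alternative fits, with both thresholds passed without library 53. Its difference shrank to -0.33 with the enamel covariate (limma-trend p of 0.0289) and to -0.35 without library 56 (p of 0.0362), which held its lowest value. *Gadd45b* (-0.44, limma-trend p of 0.0292, adjusted p = 0.459) and *Rbl2*, the gene of the retinoblastoma relative p130 (-0.40, limma-trend p of 0.0248, adjusted p = 0.429), were also lower. The p of *Gadd45b* was over 0.05 without libraries 49, 51, 52, 53 or 56 (at most 0.102), and that of *Rbl2* without libraries 50, 52 or 55 (at most 0.0774) and with the enamel covariate (0.0545). *Gadd45a* was higher, with values of 1.54, 2.24, 1.77 and 1.67 in controls and 2.15, 2.18, 2.45 and 3.62 in mutants and a difference of 0.80 (standard error 0.35, limma-trend p of 0.0381, adjusted p = 0.532). Library 56 held the highest value, the p was also over 0.05 without libraries 49, 51, 52 or 55, and without library 56 the difference was 0.46 (p of 0.138). The call of *Gadd45a* was also lost with the enamel covariate (0.55, p of 0.117), library weights (0.57, p of 0.0581), quantile normalization (p of 0.0534) and median centring (p of 0.0552).

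The levels per length of the CDK inhibitors differed widely. *Cdkn1a*, the gene of p21, had 195 ± 16.5 RPKM in controls and 188 ± 37.1 RPKM in mutants (SD, n = 4), with a log2 fold change of -0.071 (standard error 0.18, exact permutation p = 0.771). *Cdkn1c*, the gene of p57, had 185 ± 56.8 RPKM and 193 ± 72.0 RPKM (SD, n = 4), with 0.036 (standard error 0.27, exact permutation p = 0.971). Both means stood above that of *Ccnd2*, while *Cdkn2d* had 25.9 ± 4.12, *Cdkn2b* 6.04 ± 2.15, *Cdkn2c* 5.28 ± 0.989, *Cdkn1b* 5.14 ± 0.695 and *Cdkn3* 1.85 ± 0.657 RPKM (controls, SD, n = 4). *Cdkn2b*, the gene of p15 and a known TGF-β target in epithelial cells, had log2 values of 3.58, 2.27, 3.20 and 2.96 in controls and 1.96, 2.71, 3.78 and 2.89 in mutants, with overlapping genotypes and a difference of -0.17 (standard error 0.37, exact permutation p = 0.714). *Cdkn1b*, *Cdkn2c*, *Cdkn2d*, *Cdkn3*, *Rb1*, *Rbl1*, *Btg1*, *Tob1*, *Gas1*, *Ccng1* and *Ccng2* had log2 fold changes between -0.53 (*Cdkn3*, exact permutation p = 0.143, which passed both thresholds with library weights and without library 52) and 0.17 (*Cdkn1b*, exact permutation p = 0.286).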

How the data were processed

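RNA of P7 dental pulp was sequenced in 4 Osterix-Cre and 4 *Tgfbr2cko* libraries. The authors preamplified it with a low-input kit. Their processing notes and methods name fastp 0.21.0, HISAT2 2.1.0, featureCounts from Subread 2.0.1, GRCm38.p5 and GENCODE M14, a selection of reliably quantifiable genes (CLEAR) and voom. The deposited values are log2 CPM, with 0.5 added to each count, so a fold change of a low gene is understated. All 97184 values turned back into whole counts to within 1.42e-05. Strand use in the counting is not given in the sources used here. Symbols, positions and exon lengths came from GENCODE M21, which matched 12144 of the 12148 identifiers without their versions, and promoters from RefSeq on GRCm38.p6.

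Genotypes were compared in 1 limma-trend model (limma 3.58.1, R 4.3.3) over all genes and 8 libraries, with Benjamini-Hochberg adjustment over 12148 genes and 95% intervals from the same fit. Single genes were also compared by an exact permutation test over 70 arrangements. The members, gene lists and tests were chosen with earlier results of these data known. Genes named are every member, *Tgfbr2*, all inhibitors, and genes of the further lists that were altered, with exceptions stated. *Cdk4*, *Dspp*, *Klk4* and *LTO1* with the other overlapping genes were named outside that rule. Alternatives dropped the trend, used library or voom weights, quantile normalization, median centring, 5 added reads, a mean log2 value of at least 3, averaging of libraries with the same genotype and title number, the enamel matrix level as a covariate, and left out each library in turn. Figures used Python 3.11.15 with matplotlib 3.10.9.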

Additional observations from a re-analysis of the deposited data

Results flagged for a closer look

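In 5 of 128 groups of 4 libraries examined (each member and inhibitor, *Tgfbr2*, *Myc*, *Atm*, *Pold2* and both phase means, in each genotype), the highest or lowest library stood apart, with a gap to its nearest neighbour that, as a share of the range of the group, exceeds Dixon's 95% critical value. Chance alone flags about 1 in 20 groups, or 6.4 here. In the *Tgfbr2cko* libraries the gap was 0.867 of the range for *Mcm6* (5.81 to 6.90), where library 53 was high, 0.866 for *Aurkb* (2.68 to 3.74), where library 55 was low, and 0.835 for *Cdkn2c* (3.59 to 3.92), where library 53 was high. In the Osterix-Cre libraries it was 0.893 for *Tyms* (4.23 to 4.89), where library 52 was low, and 0.963 for *Smc4* (5.95 to 6.18), where library 51 was high.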

How the results depend on the processing

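Under each of the 17 alternatives, 0 of the members tested had an adjusted p under 0.05 (39 members, or 36 where a mean log2 value of at least 3 left out *E2f1*, *Ccne2* and *Kif23*), and the lowest adjusted p was 0.139 (*Ccnd1* without library 53). An unadjusted p under 0.05 was reached by 7 of 39 in at least 1 alternative (*E2f1*, *Ccnd1*, *Aurkb*, *Cenpf*, *Tpx2*, *Nusap1* and *Smc4*). For *Aurkb* this was only with library weights (-0.57, limma-trend p of 0.0382), and for *Cenpf* only without library 55 (0.54, p of 0.0393). The count of members altered and higher was 1 without the trend, after quantile normalization, after median centring and with the enamel covariate (*E2f1* each time), and 0 to 2 with a library left out (2 without library 51, *Ccnd1* and *E2f1*). The count altered and lower was 0 to 2 with a library left out (2 without library 52). Of all 12148 genes, 701 were altered in either direction in the main fit. That all-gene count was 699 without the trend, 675 after quantile normalization, 693 after median centring and 634 with the enamel covariate. With a library left out it was 625 to 947 (701 without library 51, 656 without library 52). The 115 genes of the table with an adjusted p under 0.05 became 258 with library weights and 65 to 165 with a library left out (65 without library 51, 70 without library 52, 72 without library 55). No paired analysis was possible because the genotypes share only 1 title number, that of control library 51 and mutant libraries 54 and 55. Counts between 20 and 113 reads, as for *Kif23*, and 4 libraries a genotype limit the precision.

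Direction held for 14 of 39 members in every alternative they were tested in, but not size, and with a library left out they ran over *Mcm3* 0.10 to 0.25, *Mcm5* 0.042 to 0.45, *Rrm1* 0.032 to 0.23, *E2f1* 0.42 to 0.76, *Ccne2* 0.13 to 0.42, *Ccnd1* 0.43 to 0.70, *Aurkb* -0.45 to -0.10, *Plk1* -0.52 to -0.22, *Cdc20* -0.40 to -0.00015 (the last without library 55), *Cenpf* 0.17 to 0.54, *Tpx2* -0.59 to -0.29, *Nusap1* -0.60 to -0.11, *Smc2* 0.035 to 0.20 and *Smc4* 0.16 to 0.34. Other alternatives went outside some of these ranges, as with library weights for *Cenpf* (0.082), *Aurkb* (-0.57) and *Rrm1* (0.026). The other 25 members changed sign in at least 1 alternative, none with an adjusted p under 0.05. With libraries of the same title number averaged the log2 fold change was 0.023 for *Mcm6*, 0.054 for *Pcna*, 0.013 for *Rrm2*, 0.11 for *Ccnb1*, 0.059 for *Cenpe*, 0.042 for *Hmgb2*, 0.044 for *Cdkn2d*, -0.0062 for *Rb1* and -0.10 for *Ccng1*. With the enamel covariate it was 0.012 for *Mcm2*, 0.048 for *Mcm6*, 0.058 for *Pcna*, 0.014 for *Ccnb1*, 0.11 for *Kif23*, 0.15 for *Cdkn2d*, -0.074 for *Rb1*, -0.13 for *Rbl1*, 0.084 for *Tob1* and 0.18 for *Ccng2*. With library weights it was -0.0046 for *Mcm4*, -0.00076 for *Ccnb2*, -0.037 for *Ccna2*, -0.14 for *Bub1b*, -0.080 for *Birc5*, 0.030 for *Cdkn2b*, 0.090 for *Cdkn2d*, -0.055 for *Gas1* and 0.013 for *Ccng2*. With a library left out, the log2 fold changes of the 25 members ran over *Mcm2* -0.21 to 0.055, *Mcm4* -0.049 to 0.18, *Mcm6* -0.32 to 0.039, *Mcm7* -0.087 to 0.040, *Pcna* -0.11 to 0.071, *Rrm2* -0.18 to 0.042, *Tyms* -0.057 to 0.16, *Cdt1* -0.011 to 0.26, *Ccne1* -0.17 to 0.32, *Ccnd2* -0.017 to 0.20, *Mki67* -0.23 to 0.18, *Top2a* -0.28 to 0.096, *Cdk1* -0.0037 to 0.28, *Ccnb1* -0.25 to 0.19, *Ccnb2* -0.13 to 0.22, *Ccna2* -0.064 to 0.25, *Aurka* -0.37 to 0.0025, *Bub1b* -0.15 to 0.30, *Birc5* -0.16 to 0.24, *Cenpe* -0.19 to 0.11, *Kif20a* -0.035 to 0.28, *Kif23* -0.40 to 0.38, *Prc1* -0.33 to 0.019, *Ube2c* -0.38 to 0.080 and *Hmgb2* -0.26 to 0.066. The 11 inhibitors that changed sign ran over *Cdkn1a* -0.16 to 0.069, *Cdkn1c* -0.18 to 0.25, *Cdkn2b* -0.48 to 0.13, *Cdkn2c* -0.20 to 0.0025, *Cdkn2d* -0.14 to 0.15, *Rb1* -0.13 to 0.11, *Rbl1* -0.095 to 0.21, *Tob1* -0.18 to 0.067, *Gas1* -0.28 to 0.23, *Ccng1* -0.18 to 0.15 and *Ccng2* -0.28 to 0.17. The cause was not tested.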
